A study of Homo sapiens with 8 samples.

Results

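The replication-dependent histone genes are the clustered, multicopy genes that supply the core and linker histones while DNA is being copied. Here they were taken as every gene on the array whose design name starts with HIST1H, HIST2H, HIST3H or HIST4H, and each gene was read from its brightest probe. There were 69 such genes with 85 probes, among 43317 gene names with 58201 probes. By type they comprised 6 H1, 17 H2A, 19 H2B, 13 H3 and 14 H4 genes. A gene was called measured if at least 8 of the 16 channels read its probe as well above background, and 63 of the 69 passed this filter (18553 of all genes). HIST1H1A, HIST1H1T, HIST1H2APS1, HIST1H2BA, HIST1H4G and HIST2H2BA did not pass. Of these, HIST1H1A was above background in 4 channels, all of FaDu cells, with log2 ratios of 0.50 with miR-99a-5p and 1.39 with miR-99a-3p, and HIST1H1T in 2 channels. The other 4 were above background in no channel.

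The data are 8 two-colour Agilent 60-mer arrays, 1 per condition, hybridized with total RNA of human cancer cell lines. Cells transfected with Lipofectamine RNAiMAX were labelled with Cy5, and mock cells of the same line, which the labels describe as not transfected, with Cy3. FaDu cells, from a hypopharyngeal squamous cell carcinoma, received miR-99a-5p or miR-99a-3p. PC3 cells, a prostate cancer line, received miR-150-5p, miR-150-3p, miR-99a-3p or miR-100-3p, and PANC-1 pancreatic cancer cells received si-FOXQ1-1 or si-FOXQ1-2, siRNAs against FOXQ1. Each line is a single established line, no control miRNA or control siRNA was hybridized in these arrays, and the dyes were not swapped. With 1 array per condition no test of a transfection was possible, so every ratio describes 1 hybridized pair of RNAs and the number of arrays limits the precision.

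Histone H3 and H4 form the centre of the nucleosome, H2A and H2B complete the octamer, and H1 binds the linker DNA between nucleosomes. The genes are transcribed mainly in S phase from clusters that hold all the types side by side, and most of their mRNAs end in a conserved stem-loop in place of a poly(A) tail. The stem-loop is bound by SLBP, and the mRNAs are destroyed when DNA synthesis stops. Some of these genes also give polyadenylated transcripts outside S phase and in differentiating cells. The labelling kit used for these arrays copies RNA from poly(A) tails, so the level of a histone mRNA and the share of it that carries a tail cannot be told apart in these ratios.

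On the probe annotation of the array (hg19), 35 of the HIST1 genes lay between 25726563 and 26285556 of chromosome 6 and 21 between 27100318 and 27861647. The HIST2 and HIST3 genes lay on chromosome 1 and HIST4H4 on chromosome 12. The mature sequences of 3 of the transfected miRNAs, taken from RefSeq (GRCh38.p14), are shown because each is the agent of an array described below. The seed, bases 2 to 8, is in capitals, and no 2 of the seeds are the same. The seeds of miR-99a-3p and miR-100-3p are nearly alike and differ only by a C in place of a U.

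miR-99a-5p: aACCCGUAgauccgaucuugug

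miR-99a-3p: cAAGCUCGcuucuaugggucug

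miR-100-3p: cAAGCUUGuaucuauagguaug

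Where a probe lies may bear on which form of a histone mRNA it reads, and this was not tested. Among the 85 probes 9 held the letters GGCNCTTTT, the 5′ arm and loop of the stem-loop, on the strand of the mRNA. Windows of 28 bases from 4 of them are shown, because they read the lowest ratio of the H2A, H2B and H3 types, and the next lowest of H2B, in PC3 cells with miR-99a-3p. Capitals mark the arm and loop.

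HIST1H2AG: cgagtccaaaccaacGGCTCTTTTcagg

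HIST1H2BF: ccaatcccaaaGGCTCTTTTaagagcca

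HIST2H3A: tatccaaaaGGCTCTTTTcagagccacc

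HIST3H2BB: cgtcctgaacccaaaGGCTCTTTTcaga

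Copies of 1 type share much of their coding sequence. Of all pairs of probes of different histone genes, 50 overlapped without gaps by at least 30 bases at 80% identity or more, and all 50 were within 1 type (8 pairs of H2A, 12 of H2B, 16 of H3 and 14 of H4 probes). They involved 41 of the 69 genes, and the counts and medians below therefore rest on readings that are not independent of each other. The pair below is from 2 H2B genes, HIST1H2BC and the second probe of HIST1H2BK, over 51 bases with 5 differences, which are in capitals.

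HIST1H2BC: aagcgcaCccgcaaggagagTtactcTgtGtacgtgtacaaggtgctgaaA

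HIST1H2BK: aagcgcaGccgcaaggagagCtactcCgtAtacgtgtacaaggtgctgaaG

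The promoters differ by type. RefSeq promoters (GRCh38.p14, 250 bases before to 50 after the start of transcription) were found for 62 of the 69 genes. CCAAT, searched on both strands like the other motifs, was present in all 6 H1, 15 H2A, 18 H2B and 11 H3 promoters and in 3 of 12 H4 promoters (35.7% of all 27305 promoters). The octamer ATTTGCAT was in 11 H2A and 14 H2B promoters and in no H1, H3 or H4 promoter (1.8% of all). GGTCCG was in 11 of 12 H4 promoters (11.2% of all) and AAACACA in all 6 H1 promoters (5.76% of all). The TATA letters TATAAA were in 3 of 6 H1, 11 H2A, 12 H2B, 9 H3 and 7 H4 promoters (12% of all). H2A and H2B genes that stand head to head share promoter sequence and so count together in both types.

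The 250 bases before the start are shown for 1 gene of each of 3 types, an H4 gene and an H1 gene that fell and an H2B gene that rose in PC3 cells with miR-99a-3p. Capitals mark these motifs on either strand. A motif is a description of letters and not a shown binding site.

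HIST1H4B, chr6:26027284-26027533, minus strand: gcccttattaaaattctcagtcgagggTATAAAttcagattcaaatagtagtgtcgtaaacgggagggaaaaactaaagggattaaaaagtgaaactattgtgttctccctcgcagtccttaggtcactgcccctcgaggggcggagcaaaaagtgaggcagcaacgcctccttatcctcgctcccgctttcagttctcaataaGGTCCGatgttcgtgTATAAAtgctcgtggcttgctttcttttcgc

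HIST1H2BC, chr6:26123927-26124176, minus strand: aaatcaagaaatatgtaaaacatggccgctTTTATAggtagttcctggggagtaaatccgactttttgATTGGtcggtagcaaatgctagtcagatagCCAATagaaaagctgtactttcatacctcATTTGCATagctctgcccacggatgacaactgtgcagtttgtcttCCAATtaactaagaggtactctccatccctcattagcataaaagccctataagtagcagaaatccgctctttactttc

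HIST1H1D, chr6:26234988-26235237, minus strand: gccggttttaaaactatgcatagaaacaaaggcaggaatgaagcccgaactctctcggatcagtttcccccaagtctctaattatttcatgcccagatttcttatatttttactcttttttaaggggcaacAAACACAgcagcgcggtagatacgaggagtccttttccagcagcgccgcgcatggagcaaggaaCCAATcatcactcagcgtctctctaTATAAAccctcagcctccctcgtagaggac

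Before the ratios, the labels were checked against the arrays. FOXQ1, the target of the siRNAs, had log2 ratios of -2.16 and -2.12 in PANC-1 cells with si-FOXQ1-1 and si-FOXQ1-2. In the mock channels KRT8, KRT18 and EPCAM were above background in all 3 lines, KRT5, KRT14 and TP63, markers of squamous epithelium, in both FaDu channels and in no other, and KRT6A in both FaDu channels and in 2 of the 4 PC3 channels. CDKN2A, deleted in PANC-1 cells, gave signals of 284.1 and 299.5 there, still above background, against 5376 to 24363 in the other lines. KLK3 and COL1A2 were above background in no mock channel. The leukocyte gene PTPRC was above background in 6 of the 8 mock channels, at signals of at most 46.7, and COL1A1 in all 8.

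The histone genes moved furthest in PC3 cells with miR-99a-3p, and in both directions. On this array 20 of the 63 measured genes had a log2 ratio of -1 or lower, where 5.97% of 18549 measured genes did, and 11 had 1 or higher, where 3.74% of all genes did. Their median was -0.24, and that of all measured genes was 0.03. Of the H3 genes 7 of 13 fell, as did 6 of 13 H4 genes and 1 of 4 H1 genes, 8 of 17 H2B genes rose, and H2A genes were divided. "Rose" and "fell" here mean a log2 ratio past 1 in either direction on 1 array, as no test was possible. The ratio's spot error, as the scanner software gives it, had a median of 0.231 over the 63 genes on this array and 0.205 to 0.21 on the other 7. On the 59 genes above background in both channels of this array the counts were 18 and 11.

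On the other arrays fewer genes passed these limits. With miR-150-3p in PC3 cells, where the median was 0.00, 5 genes were at -1 or lower (3.92% of all genes) and 4 at 1 or higher (2.37%). The 4 include HIST1H2BE, which was above background in neither channel. On the 61 genes above background in both channels of this array the counts were 5 and 3. With miR-100-3p 1 was at -1 or lower (1.63%) and none at 1 or higher (0.916%), yet 57 of 63 lay below 0, against 51.1% of all genes, with a median of -0.41. With miR-150-5p there were none on either side (1.89% and 0.625% of all genes), and the median was 0.10.

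In FaDu cells the histone genes lay mostly above 0. With miR-99a-5p 59 of 63 were above 0, against 45.8% of all genes, and the median was 0.39, but 1 was at 1 or higher (1.27% of all) and none at -1 or lower (2.92%). With miR-99a-3p 48 of 63 were above 0, against 48.7% of all genes (median 0.27), while 2 were at -1 or lower (7.3%) and 1 at 1 or higher (8.27%). In PANC-1 cells si-FOXQ1-1 gave a median of 0.13 with 1 gene at -1 or lower (1.79%) and 1 at 1 or higher (1.19%). With si-FOXQ1-2 the median was -0.06, with 1 gene at -1 or lower (1.94%) and none at 1 or higher (0.819%). In FaDu and PANC-1 cells each of the 4 genes at -1 or lower was dim, not above background in both channels. They were HIST1H2AA and HIST2H2BF in FaDu cells, and HIST4H4 and HIST3H2A in PANC-1 cells.

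**Figure D1:**
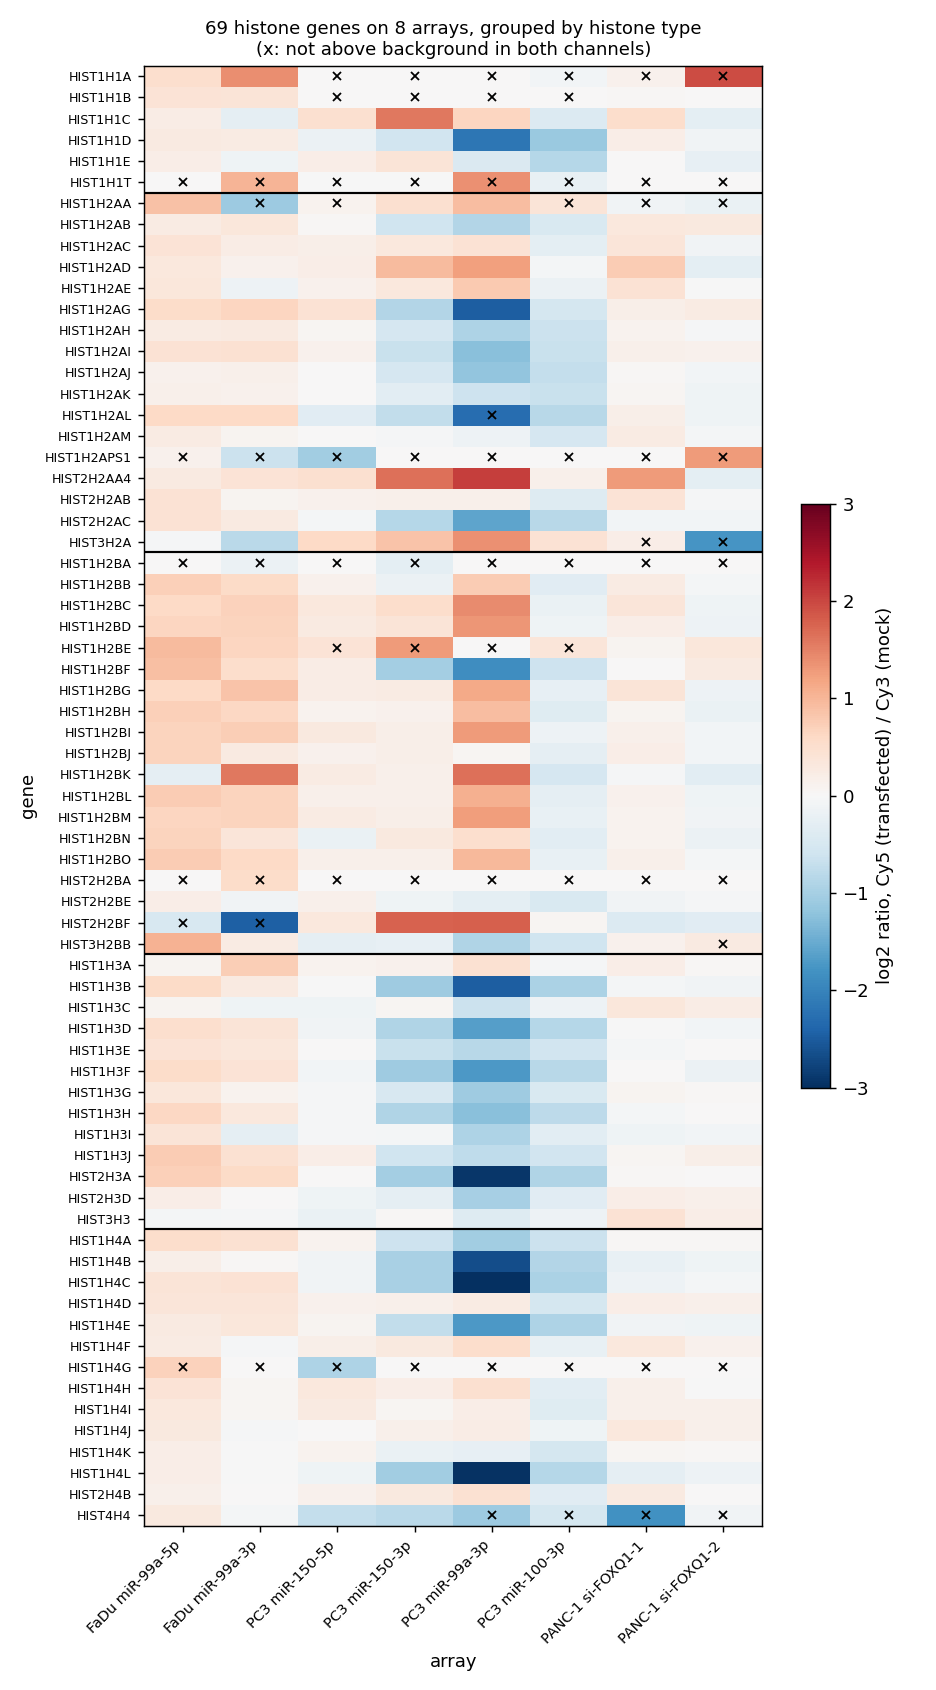
Log2 ratio of Cy5 (transfected) over Cy3 (mock) for the 69 histone genes (rows, grouped by type with black lines between H1, H2A, H2B, H3 and H4) on the 8 arrays (columns), on a scale from -3 (blue) to 3 (red). Crosses mark spots not above background in both channels. The column of PC3 cells with miR-99a-3p holds the deepest colours of both kinds, with HIST1H4C at -2.99 and HIST2H2AA4 at 2.06.

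The brightest probes of H4 genes gave 2 sets of readings in PC3 cells with miR-99a-3p. Of 13 measured H4 genes 6 were at -1 or lower and none at 1 or higher, with a range of -2.99 to 0.54. HIST1H4C was the brightest histone gene on the arrays and ranked 126 of the 18553 measured genes by signal. Its log2 ratios were 0.39 with miR-99a-5p and 0.43 with miR-99a-3p in FaDu cells, then -0.10 for miR-150-5p, -0.97 for miR-150-3p, -2.99 for miR-99a-3p and -0.94 for miR-100-3p in PC3 cells, and -0.14 for si-FOXQ1-1 and -0.06 for si-FOXQ1-2 in PANC-1 cells, the order used below. On the array of PC3 cells with miR-99a-3p its signal was 193550 in the mock channel and 24357 in the transfected one, a ratio with a spot error of 0.35.

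HIST1H4L, the next brightest H4 gene, had log2 ratios of 0.19 and 0.00 in FaDu, -0.12, -1.03, -2.97 and -0.86 in PC3, and -0.26 and -0.16 in PANC-1 cells. HIST1H4B was nearly the same, with log2 ratios of 0.19 and 0.03 in FaDu, -0.11, -0.97, -2.65 and -0.89 in PC3, and -0.21 and -0.13 in PANC-1 cells. All 3 were lowest with miR-99a-3p, came next with miR-150-3p and miR-100-3p in PC3 cells, and stayed within 0.43 of 0 in FaDu and PANC-1 cells. HIST1H4E (-1.71) and HIST1H4A (-1.03) also passed -1 with miR-99a-3p in PC3 cells, as did HIST4H4 (-1.10), whose Cy5 signal was not above background there. By its brightest probes the other set did not move with them. HIST1H4F (0.54), HIST1H4H (0.49), HIST2H4B (0.47), HIST1H4D (0.25), HIST1H4J (0.22), HIST1H4I (0.20) and HIST1H4K (-0.24) lay between -0.24 and 0.54 on that array, and the H4 median of -0.24 is the value of the lowest gene of this set. Within this set the probes of HIST1H4F, HIST1H4H, HIST1H4I, HIST1H4K and HIST2H4B overlapped in sequence, over 33 to 53 bases with 3 to 8 mismatches. A second probe of HIST1H4D lay below 0, as given below. Whether the sets differ by gene or by where their probes lie was not tested. The measured H4 genes encode the same protein.

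H3 genes mostly fell. In PC3 cells with miR-99a-3p 7 of 13 were at -1 or lower and none at 1 or higher, and the median was -1.002. HIST2H3A, which encodes the variant H3.2, had log2 ratios of 0.71 and 0.57 in FaDu, 0.02, -1.03, -2.91 and -0.91 in PC3, and 0.04 and 0.01 in PANC-1 cells. HIST1H3B, an H3.1 gene, had log2 ratios of 0.58 and 0.27 in FaDu, -0.02, -1.07, -2.48 and -0.95 in PC3, and -0.06 and -0.09 in PANC-1 cells. HIST1H3F, also an H3.1 gene, had log2 ratios of 0.55 and 0.40 in FaDu, -0.09, -1.07, -1.72 and -0.83 in PC3, and 0.01 and -0.19 in PANC-1 cells. These 3 passed -1 with both miR-99a-3p and miR-150-3p in PC3 cells and lay above 0 on both FaDu arrays. With miR-150-3p they passed it narrowly, and with the 4 PC3 mock channels averaged as the control they were at -0.91 for HIST2H3A, -0.96 for HIST1H3B and -0.92 for HIST1H3F. With normexp and loess HIST2H3A did not pass it either.

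The brightest H3 probes changed less. HIST3H3, which encodes the testis form H3t and was listed as testis-restricted, was the brightest H3 gene by signal, with log2 ratios of -0.06 and -0.03 in FaDu, -0.21, 0.03, -0.38 and -0.15 in PC3, and 0.43 and 0.20 in PANC-1 cells. Its probe overlapped those of HIST1H3C, HIST1H3J and HIST2H3D at 80% identity or more, over 40 to 55 bases with 6 to 11 mismatches. The part of shared sequence in its signal was not tested. Of the 4 histone genes listed as testis-restricted the other measured one was HIST1H2AA, with 0.92 in PC3 cells with miR-99a-3p. HIST2H3D, the next brightest, had log2 ratios of 0.21 and 0.00 in FaDu, -0.14, -0.27, -1.002 and -0.34 in PC3, and 0.19 and 0.15 in PANC-1 cells. HIST1H3A was the only H3 gene above 0 with miR-99a-3p in PC3 cells (0.46), and it reached 0.74 with miR-99a-3p in FaDu cells. HIST1H3I had -0.92 in PC3 cells, at a mock signal of 154.7, and -0.27 in FaDu cells with miR-99a-3p. Of the rest, HIST1H3D (-1.65), HIST1H3H (-1.25) and HIST1H3G (-1.08) passed -1 with miR-99a-3p in PC3 cells, while HIST1H3E (-0.84), HIST1H3J (-0.76) and HIST1H3C (-0.65) did not.

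H2B genes went the other way. In PC3 cells with miR-99a-3p 8 of 17 were at 1 or higher, 1 was at -1 or lower, and the median was 0.97. The same genes had a median of 0.63 with miR-99a-3p and 0.66 with miR-99a-5p in FaDu cells, the highest of the 5 types on both arrays. HIST1H2BK, one of the genes known to give a polyadenylated mRNA, had log2 ratios of -0.27 and 1.57 in FaDu, 0.25, 0.15, 1.65 and -0.50 in PC3, and -0.04 and -0.32 in PANC-1 cells. It was highest with miR-99a-3p in both cell lines. Its signal in FaDu cells went from 943.2 in the mock channel to 2807 with miR-99a-3p, and in PC3 cells from 9014 to 28301.

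HIST1H2BC had log2 ratios of 0.59 and 0.69 in FaDu, 0.33, 0.52, 1.43 and -0.20 in PC3, and 0.36 and -0.12 in PANC-1 cells. HIST1H2BD had log2 ratios of 0.64 and 0.66 in FaDu, 0.26, 0.40, 1.31 and -0.13 in PC3, and 0.19 and -0.16 in PANC-1 cells. HIST1H2BG, HIST1H2BI, HIST1H2BL and HIST1H2BM reached 1.14, 1.29, 1.06 and 1.26 with miR-99a-3p in PC3 cells and 0.85, 0.73, 0.68 and 0.66 in FaDu cells. HIST1H2BH and HIST1H2BO stayed just under 1 in PC3 cells, at 0.94 and 0.97, and HIST1H2BB (0.77), HIST1H2BN (0.51) and HIST1H2BJ (0.05) lay lower. HIST1H2BL and HIST1H2BH were the brightest H2B genes.

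A few H2B genes did not follow the rest. HIST1H2BF had log2 ratios of 0.91 and 0.53 in FaDu, 0.21, -1.03, -1.87 and -0.63 in PC3, and 0.00 and 0.28 in PANC-1 cells. HIST3H2BB had 1.05 with miR-99a-5p in FaDu cells and -0.91 with miR-99a-3p in PC3 cells. Both are read by probes that hold the stem-loop letters shown above. HIST2H2BE, which is known to give a polyadenylated mRNA, lay between -0.46 and 0.20 on all 8 arrays, with a signal of 122.3 in the mock channel on the array of PC3 cells with miR-99a-3p. HIST2H2BF rose to 1.80 with miR-99a-3p and 1.76 with miR-150-3p in PC3 cells. HIST2H2BF was at -2.44 with miR-99a-3p in FaDu cells, where the mock signal of 52.3 was dim and the transfected signal was not above background.

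H2A genes were divided. In PC3 cells with miR-99a-3p 5 of 16 were at -1 or lower and 3 at 1 or higher, and the median was -0.40. HIST2H2AA4 was the highest of all 63 genes there, with log2 ratios of 0.27 and 0.41 in FaDu, 0.48, 1.64, 2.06 and 0.16 in PC3, and 1.29 and -0.28 in PANC-1 cells. It exceeded 1 with miR-150-3p in PC3 cells and with si-FOXQ1-1 in PANC-1 cells too, but not with si-FOXQ1-2, which has the same target. HIST1H2AD had log2 ratios of 0.32 and 0.12 in FaDu, 0.20, 0.95, 1.23 and -0.05 in PC3, and 0.77 and -0.30 in PANC-1 cells, and HIST3H2A was at 1.36 with miR-99a-3p in PC3 cells and -0.80 in FaDu cells.

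Among the H2A genes that fell, HIST1H2AG had log2 ratios of 0.56 and 0.65 in FaDu, 0.43, -0.87, -2.48 and -0.52 in PC3, and 0.17 and 0.24 in PANC-1 cells. HIST1H2AL, at -2.29 with miR-99a-3p in PC3 cells, was not above background in the transfected channel, so that it was at least 4.08-fold lower there, taking the dimmest spot well above background in that channel as the limit. HIST2H2AC (-1.59), HIST1H2AI (-1.26) and HIST1H2AJ (-1.18) also passed -1. HIST1H2AJ and HIST1H2AK, the brightest H2A genes, had -0.50 and -0.32 with miR-150-3p and -0.71 and -0.66 with miR-100-3p in PC3 cells. HIST1H2AK (-0.63), HIST1H2AH (-0.92), HIST1H2AM (-0.16), HIST2H2AB (0.16), HIST1H2AE (0.78) and HIST1H2AA (0.92) filled the range between with miR-99a-3p. HIST1H2AB was at -0.88 with miR-99a-3p in PC3 cells and at 0.30 with si-FOXQ1-2 in PANC-1 cells.

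The H1 genes gave 1 fall and 1 rise that did not coincide. HIST1H1D, the gene of linker histone H1.3, had log2 ratios of 0.26 and 0.24 in FaDu, -0.17, -0.58, -2.17 and -1.11 in PC3, and 0.21 and -0.10 in PANC-1 cells. It was past -1 only on the arrays of miR-100-3p and miR-99a-3p, and on that of miR-100-3p it was the single measured histone gene past that limit. HIST1H1C, the gene of H1.2, which is known to give a polyadenylated mRNA, had log2 ratios of 0.22 and -0.27 in FaDu, 0.47, 1.58, 0.65 and -0.41 in PC3, and 0.54 and -0.29 in PANC-1 cells. Its rise was largest with miR-150-3p in PC3 cells, where the signal went from 21393 to 64133. HIST1H1E, the gene of H1.4, lay between -0.86 and 0.39, and HIST1H1B, the gene of H1.5, was not above background in any PC3 channel, so that its ratio of 0.00 there carries no measurement.

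Both stretches of the HIST1 cluster held genes that went each way. With miR-99a-3p in PC3 cells 10 of the 30 measured genes of the first stretch were at -1 or lower and 5 at 1 or higher, and of the 21 genes of the second stretch 6 and 3. Of the 8 HIST2 genes 3 and 2 did so.

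**Figure D2:**
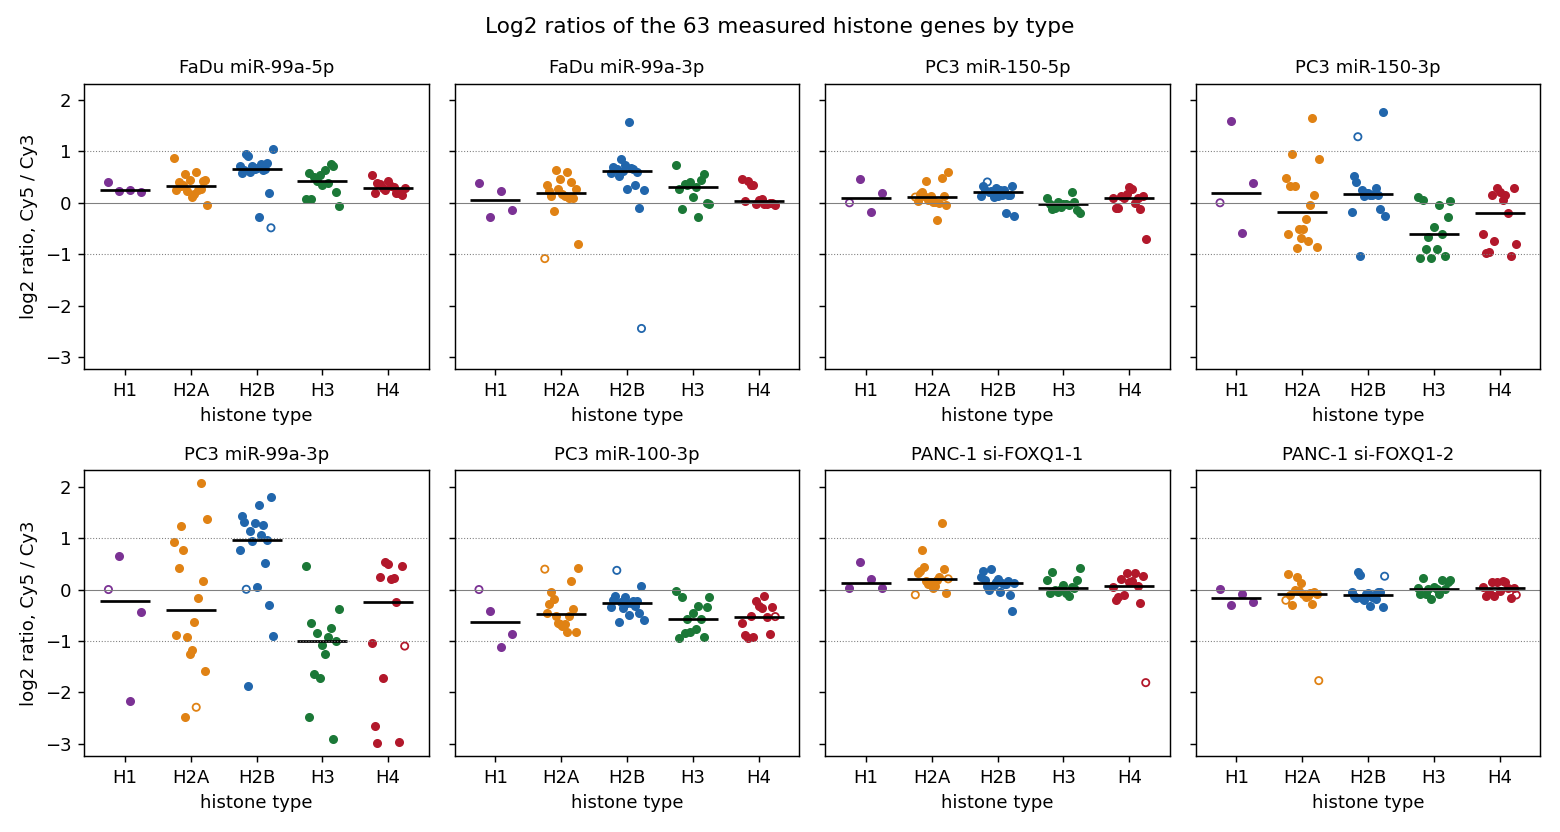
Log2 ratio (vertical axis) of the 63 measured histone genes by type (horizontal axis), 1 panel per array and 1 point per gene. Open points were not above background in both channels, black bars are medians and dotted lines mark -1 and 1. In PC3 cells with miR-99a-3p the H2B median of 0.97 stands above and the H3 median of -1.002 below those of the other types.

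The polyadenylated list of 6 genes, HIST1H1C, HIST1H2AC, HIST1H2BC, HIST1H2BD, HIST1H2BK and HIST2H2BE, was summarized as well. In PC3 cells with miR-99a-3p 3 of the 6 were at 1 or higher (3.74% of all genes) and none at -1 or lower, with a median of 0.98 against -0.24 for all measured histone genes. Most of the list, and all 3 of these genes, are of the H2B type. The median of all 17 measured H2B genes was 0.97 there, and unlisted H2B genes such as HIST1H2BI (1.29) and HIST1H2BM (1.26) rose as well. Probes of listed and unlisted H2B genes share sequence, and whether the list stands apart from its type was not tested. The medians were 0.36 with miR-150-3p, 0.25 with miR-150-5p and -0.35 with miR-100-3p in PC3 cells, and in FaDu cells 0.31 with the 5p strand and 0.44 with the 3p strand of miR-99a. In PANC-1 cells they were 0.28 and -0.14. HIST1H2AC had 0.42 with miR-99a-3p and 0.32 with miR-150-3p in PC3 cells by its brightest probe.

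Of the histone genes 15 had more than 1 probe, and the probes of a gene often differed by more than the spot error. Their grouping by distance was made after the values were seen. HIST1H2AC was read 14361 bases (hg19) from its brightest probe by a second one, which gave 1.68 with miR-99a-3p and 1.62 with miR-150-3p in PC3 cells. The second probe of HIST1H4H, 4211 bases from the first, gave 1.76 and 1.57 where the first gave 0.49 and 0.21. HIST1H2BK was read at 1.30 with miR-99a-3p in PC3 cells and 0.72 in FaDu cells, by a probe 8246 bases from the brightest. For HIST2H2BE a dimmer probe 1037 bases from the first gave 1.23 and 1.33 on these 2 PC3 arrays. HIST2H2BF had a second probe 1484 bases from the first, not above background, which gave 0.68 where the first gave 1.80. HIST1H2AG had one 1043 bases away, which gave 2.10 where the first gave -2.48, at a mock signal of 23.8 that was not above background. Its transfected signal of 102.1 was above background, so by this probe the gene was at least 3.99-fold higher. With miR-99a-3p in PC3 cells the second probe was thus the higher one in 4 of these 6 genes and the lower one in HIST1H2BK and HIST2H2BF. With miR-150-3p the order of the HIST1H2BK probes was the other way (0.15 and 0.34).

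Probes close to each other could differ as much. The probes of HIST1H2AM, 70 bases apart, gave -0.16 and -1.45 with miR-99a-3p in PC3 cells, at mock signals of 15172 and 1449. The probes of HIST1H4D, 49 bases apart, gave 0.25 and -0.88. The probes of HIST1H3H, 214 bases apart, gave -1.25 and 0.84, and the second of these holds the stem-loop letters. In contrast the probes of HIST1H4C, 338 bases apart, gave -2.99 and -3.14, though their mock signals were 193550 and 865.1. HIST1H4L had a dimmer probe with the opposite sign (1.34), 105 bases away, whose mock signal of 24.4 was not above background. Its transfected signal of 61.7 was, so by this probe the gene was at least 2.41-fold higher.

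**Figure D3:**
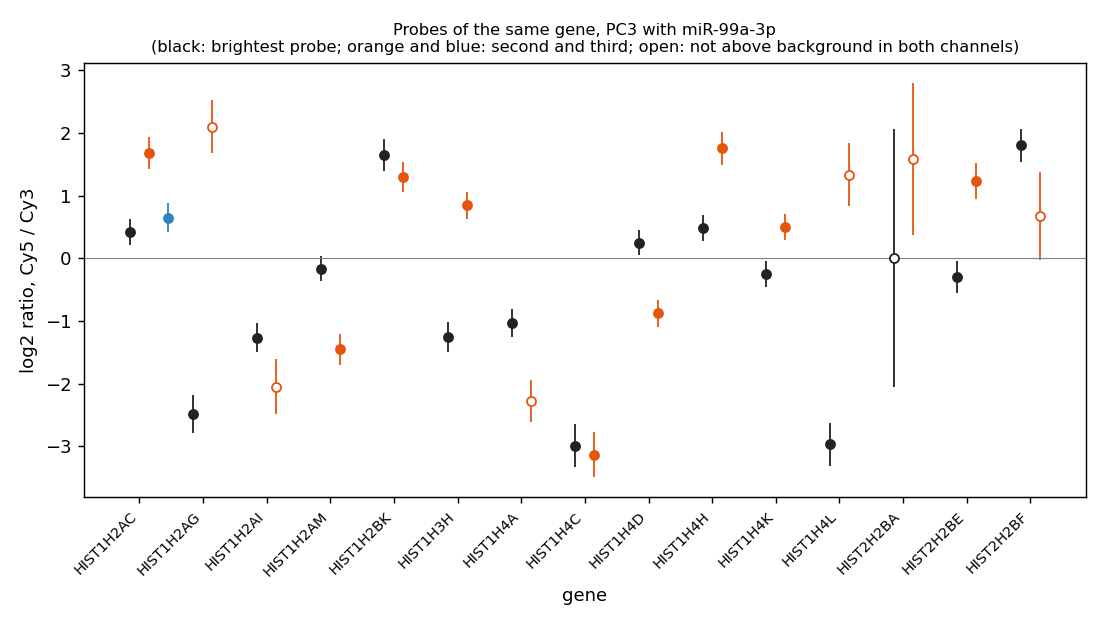
Log2 ratio in PC3 cells with miR-99a-3p (vertical axis) for each probe of the 15 histone genes with several probes (horizontal axis). Bars are the scanner's spot errors, black points the brightest probe of a gene and open points probes not above background in both channels. The probes of HIST1H4C lie together near -3, and those of HIST1H2AM, HIST1H3H and HIST1H4H lie apart.

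Over the 9 probes with the stem-loop letters the values were mixed. In PC3 cells with miR-99a-3p HIST2H3A (-2.91), HIST1H2AG (-2.48), HIST1H4A by its second probe (-2.28, with a transfected signal not above background), HIST1H2BF (-1.87), HIST1H2AI (-1.26) and HIST3H2BB (-0.91) were below 0. HIST1H3H by its second probe (0.84) and HIST1H4K by its second probe (0.50) were above it, and HIST1H2BE was not above background in PC3 cells. With the genes read by such probes left out, the H2B median was 1.10 in place of 0.97, the H3 median -0.96 in place of -1.002, and the H2A median -0.001 in place of -0.40.

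Under miR-99a-3p many of these genes had ratios of opposite sign on the PC3 and FaDu arrays. Of the 20 histone genes at -1 or lower in PC3 cells, 18 (90%) were above 0 in FaDu cells, and the median of the 20 was 0.33 there. On that FaDu array 76.2% of all measured histone genes were above 0. Some of the 18, such as HIST2H3D (0.003), HIST1H4B (0.032) and HIST1H3G (0.108), lay within the median spot error of 0.207. Among all genes at -1 or lower in PC3 cells, 687 of 1107 (62.1%) were above 0 in FaDu cells, with a median of 0.31. Of the 11 histone genes at 1 or higher in PC3 cells, 9 (81.8%) were above 0 in FaDu cells, with a median of 0.66, and among all such genes 406 of 693 (58.6%). The H3 median was -1.002 in PC3 and 0.32 in FaDu cells, the H4 median -0.24 and 0.03, and the H2B median 0.97 and 0.63. With 1 array in each line the difference between the lines was not tested. The PC3 arrays may share mock cells, so their values are given side by side only.

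**Figure D4:**
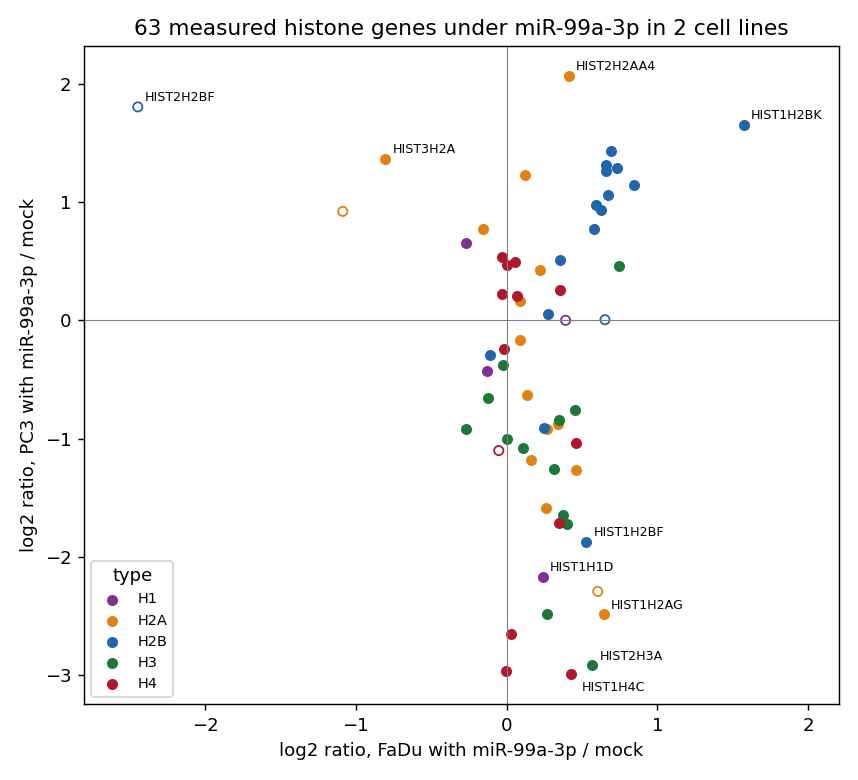
Log2 ratio under miR-99a-3p in FaDu cells (horizontal axis) and in PC3 cells (vertical axis) for the 63 measured histone genes, coloured by type. Open points were not above background in both channels of both arrays. H2B genes gather at the upper right, with HIST1H2BK at 1.57 and 1.65, while HIST1H4C and HIST2H3A lie at the bottom, at 0.43 and 0.57 in FaDu cells.

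The other genes of the histone supply were read from lists by function. Of 23 genes for histone gene transcription and mRNA processing 22 were measured, and 3 were at -1 or lower and none at 1 or higher in PC3 cells with miR-99a-3p (5.97% and 3.74% of all genes), with a list median of -0.33. SLBP, the stem-loop binding protein, had log2 ratios of -0.06 and 0.20 in FaDu, -0.12, -0.61, -1.56 and -0.25 in PC3, and -0.04 and 0.00 in PANC-1 cells. NPAT, the coactivator that cyclin E and CDK2 act on at histone genes, had log2 ratios of -0.14 and 0.91 in FaDu, 0.25, 0.09, -0.42 and 0.01 in PC3, and 0.00 and -0.06 in PANC-1 cells. CCNE2, a cyclin E gene, had -2.60 in PC3 and 2.27 in FaDu cells with miR-99a-3p. CDK2 had -1.13 with miR-150-3p in PC3 cells and -1.73 with miR-99a-3p, where its transfected signal was not above background, and NCBP1, a subunit of the cap-binding complex, had 1.09 with miR-99a-3p in FaDu cells.

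Of the 18 histone chaperone genes 5 were at -1 or lower in PC3 cells with miR-99a-3p (5.97% of all genes) and 4 at 1 or higher in FaDu cells with the same miRNA (8.27%), with medians of -0.48 and 0.43. ASF1B, an H3-H4 chaperone, had -2.24 in PC3 and 1.35 in FaDu cells. HJURP, the chaperone of CENPA, had -1.88 and 1.33, and the CAF-1 subunits CHAF1B and CHAF1A had -1.41 and -1.32 in PC3 and 0.67 and 1.27 in FaDu cells. Of 11 measured replication-independent histone genes 3 were at -1 or lower in PC3 cells with miR-99a-3p (5.97% of all genes), CENPA (-1.60), H2AFX (-1.42) and H2AFZ (-1.36). In FaDu cells CENPA and H3F3A, a gene of H3.3, were at 1.13 each.

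S phase genes moved with the same arrays. All 16 genes of this list were at -1 or lower in PC3 cells with miR-99a-3p (median -2.04, against 5.97% of all genes at -1 or lower), within a range of -3.39 to -1.305, and 10 of 16 were at 1 or higher in FaDu cells with the same miRNA (median 1.13, against 8.27% of all genes). RRM2 and TYMS, which serve nucleotide synthesis, had -3.39 and -2.76 in PC3 cells, and TK1 had -2.58. The medians were -0.89 with miR-150-3p, -0.45 with miR-100-3p and -0.32 with miR-150-5p in PC3 cells, 0.42 with miR-99a-5p in FaDu cells, and 0.25 and 0.13 in PANC-1 cells. The H3 medians on these arrays in the same order were -0.61, -0.58, -0.03, 0.42, 0.04 and 0.01. The H2B medians were 0.17, -0.27, 0.22, 0.66, 0.13 and -0.11, and the H2B median was 0.97 where that of the S phase list was -2.04. The part of the number of cells in S phase in the histone ratios was not tested. In RNA from whole cultures, fewer cells that express a gene and less of its RNA per cell cannot be told apart.

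The mock channels allow the lines to be compared without a transfection. Log2 Cy3 signals were quantile normalized over the 8 arrays and tested with limma, with 4 PC3, 2 FaDu and 2 PANC-1 channels. The labels do not say whether the mock channels are separate cultures, so p-values measure the spread between these channels, which may be technical. Over the 63 genes the PC3 mock channels lay a median of 0.05 apart between the arrays of miR-150-5p and miR-150-3p, 0.04 between those of miR-99a-3p and miR-100-3p, and 0.14 to 0.15 across these pairs. A large share of all genes passed the test, and the counts of histone genes are given with it.

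Most histone genes gave a higher mock signal in PC3 than in PANC-1 cells, where level and share with a poly(A) tail again cannot be told apart. At a limma adjusted p under 0.05, 53 of 63 genes were higher in PC3 than in PANC-1 cells, where 36.6% of 18535 genes were, and 5 were lower, where 35.8% were. The median log2 difference was 0.575, against -0.004 over all genes. The difference was widest in H4 (1.02, 11 of 13 higher) and H3 (0.91, 12 of 13 higher). Between FaDu and PANC-1 cells 37 were higher in FaDu cells (36.4% of all genes) and 10 lower (37.4%), with H4 and H3 medians of 1.02 and 0.61. Between PC3 and FaDu cells 31 were higher in PC3 cells (40.3% of all genes) and 17 lower (39.5%), with a median of 0.23 against -0.01 over all genes. The 5 genes lower than in PANC-1 cells and the 17 lower than in FaDu cells include HIST1H1B and HIST1H2BE. Both were background readings in the PC3 mock channels, so these calls carry no measured PC3 level.

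Single histone genes differed far more than their types between lines. HIST1H1B had log2 signals of 9.89 and 9.81 in FaDu and 10.63 and 10.61 in PANC-1 cells, while all 4 PC3 mock channels were not well above background. PC3 cells were therefore at least 58.3-fold lower than FaDu and at least 99.4-fold lower than PANC-1 cells. These are ratios of mean normalized signals against the dimmest probe well above background in each PC3 channel. HIST1H2BE was at least 28-fold and 22.9-fold lower in PC3 than in FaDu and PANC-1 cells in the same way. HIST1H1B and HIST1H2BE were each above background in 8 channels, all of FaDu and PANC-1 cells. They passed the filter only through the lines where they are high, and their PC3 values are background readings, so no p-value is given for them. HIST1H3I was lower in PC3 than in FaDu cells by a log2 difference of -3.66 ± 0.125 (SE, limma adjusted p = 2e-07). These 3 genes, HIST1H4J and the differences of HIST2H2BF and HIST1H2BK given next were chosen for description after their values were seen.

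HIST1H2BK had log2 signals of 9.62 and 9.56 in FaDu cells and between 12.64 and 12.79 in the other 6 channels. The difference of PC3 over FaDu cells was 3.14 ± 0.06 (SE, limma adjusted p = 1.65e-08), and a difference between PC3 and PANC-1 cells did not go beyond their spread (-0.02 ± 0.06, adjusted p = 0.758). These values are those of the brightest probe. The second probe of HIST1H2BK lay closer between the lines, with mock signals before normalization of 1820 and 3153 in FaDu and 3601 to 5738 in PC3 cells, against 569.7 and 943.2 in FaDu and 6374 to 9014 in PC3 cells for the first. HIST2H2BF was highest in PANC-1 cells, at 10.59 and 10.55, with log2 differences of -5.25 for FaDu and -4.003 for PC3 against PANC-1 cells (limma adjusted p = 5.26e-08 and 7.12e-08). HIST1H4J was lowest in PANC-1 cells, at 9.45 and 9.55, against 11.82 to 12.14 in PC3 and 12.81 and 12.82 in FaDu cells. HIST1H4C, at 16.13 to 17.13 in all 8 channels, was 0.83 ± 0.09 higher in PC3 than in FaDu cells (limma adjusted p = 8.34e-05).

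**Figure D5:**
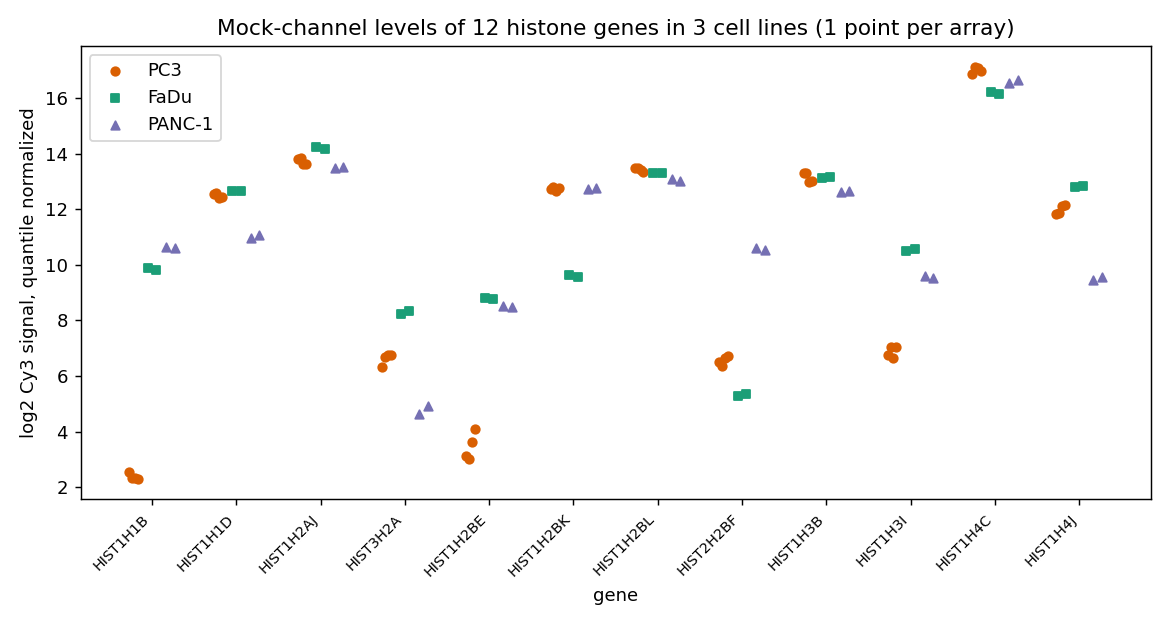
Quantile normalized log2 Cy3 signal (vertical axis) of 12 histone genes (horizontal axis) in the mock channels, 1 point per array, for PC3 (4 circles), FaDu (2 squares) and PANC-1 (2 triangles). Levels are comparable between lines within a gene and not between genes. HIST1H1B and HIST1H2BE lie at the bottom in PC3 cells, HIST1H2BK is lowest in FaDu cells, and HIST2H2BF is highest in PANC-1 cells.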

How the data were processed

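Total RNA of 8 transfected cultures (Cy5) and mock cells of the same line (Cy3) was hybridized to 2-colour Agilent arrays (design 072363) on 1 slide. Per the file headers, Agilent Feature Extraction 10.7.3.1 subtracted background and normalized the dyes, and the authors deposited a log10 ratio of Cy5 over Cy3 and the processed intensity of each channel. The build named for probe positions was hg19. Here log10 ratios were converted to log2, control and outlier spots were left out, spots of a probe were averaged, and the brightest probe stood for a gene. The deposited series table holds the same log10 ratios and served as an alternative.

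With 1 array per condition, ratios past 1 on the log2 scale were counted without a test. Deposited Cy3 intensities were quantile normalized on the log2 scale and tested between lines with limma 3.58.1 (R 4.3.3), adjusted by Benjamini-Hochberg over all measured genes. Scripts ran in Python 3.11.15 with pandas 2.3.3, and the fits were tested on simulated data. The members and lists were chosen with earlier results of these data known. Named genes were the 2 brightest of each type, the 3 lowest and 3 highest of each array above background in both channels, the list of genes with polyadenylated forms, SLBP, NPAT, FOXQ1 and at most 4 genes of each other list that passed 2-fold. Other histone genes are named to complete the account of a type and were chosen after their values were seen. Alternatives covered background correction, the probe used, outlier spots, centring, the filter, the threshold, the PC3 control channel and each mock channel left out. Some of the cell line markers checked are not reported here.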

Additional observations from a re-analysis of the deposited data

Results flagged for a closer look

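In 32 groups of 4 PC3 mock channels, 1 for each named histone gene, the sample farthest from the rest was compared with the group's range, and chance alone picks out about 1 in 20 such groups. HIST1H1C had a log2 Cy3 signal of 14.13 on the array of PC3 cells with miR-150-3p, against 14.29 to 14.31 on the other 3, a gap of 0.889 of the range. HIST1H2BD had 11.70 on the same array, against 11.61 to 11.62, again a gap of 0.889 of the range.

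The histone genes also differed between lines under the same miRNA. Under miR-99a-3p the median over all 5 types was -0.24 on the log2 scale in PC3 and 0.27 in FaDu cells, and that of the H3 genes was -1.0 in PC3 and 0.32 in FaDu cells. With 1 array in each line these differences were not tested.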

How the results depend on the processing

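No paired analysis was possible because there is only 1 array of each transfection. Beyond the comparison of mock lines, whose counts under each alternative stayed within 1.5 times the main ones, the counts past 2-fold are small and moved most.

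With a log2 threshold of 0.58 in place of 1, 19 genes were higher with miR-99a-5p and 13 with miR-99a-3p in FaDu cells. In PC3 cells 1 was lower and 1 higher with miR-150-5p, 20 were lower with miR-150-3p, 17 higher with miR-99a-3p and 22 lower with miR-100-3p, and in PANC-1 cells 2 were higher with si-FOXQ1-1. With a threshold of 2, 8 were lower and 1 higher with miR-99a-3p in PC3 cells, 1 was lower with miR-99a-3p in FaDu cells, and the other counts that had been above 0 were 0.

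With normexp and loess 2 were lower with miR-150-3p in PC3 cells. The counts were 0 for higher with miR-99a-5p and lower with miR-99a-3p in FaDu cells and for lower with both siRNAs. Above background in all 16 channels, these last 4 counts were 0 as well, and 2 were higher with miR-150-3p. Above background in both channels of the array, chosen after seeing the data, the count was 0 for lower with miR-99a-3p in FaDu cells and with both siRNAs. With no filter 3 were higher with miR-99a-3p in FaDu cells, 1 lower with miR-150-5p in PC3 cells and 2 higher with si-FOXQ1-2.

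With the mean over probes 2 were higher with miR-99a-5p in FaDu cells and 2 lower with miR-100-3p in PC3 cells. With the dimmest probe 4 were higher with miR-99a-5p and 1 lower with miR-99a-3p in FaDu cells, 7 higher with miR-150-3p, and 3 lower and 1 higher with miR-100-3p. With the 4 PC3 mock channels averaged as the control none was lower with miR-150-3p, 4 were lower with miR-100-3p, and the H3 median with miR-150-3p was -0.39.

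The median of all types with miR-99a-3p in PC3 cells was 0.053 with the dimmest probe and 0 with no filter. On that array the H2A median was -0.16 with no filter and with both channels above background, -0.63 above background in all channels and -0.001 without the stem-loop probes, and the H4 median was 0.20 with the dimmest probe and -0.020 under both stricter filters. With miR-150-3p the H2A median was 0.055 without the stem-loop probes and the H4 median 0.056 with the dimmest probe. With no filter the H1 median was 0.31 with miR-99a-3p in FaDu cells and -0.31 with miR-100-3p in PC3 cells. HIST1H4L read 0.89 with miR-150-3p and 1.34 with miR-99a-3p in PC3 cells by its dimmest probe, whose mock signal of 24.4 was not above background. The causes were not tested.

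Of the ratios of named genes 1567 of the alternatives stayed within the spot error and 95 moved beyond it. The other 2, of HIST1H4L, changed sign from a main log2 ratio past 1 in size. Sign changes of smaller ratios were not counted apart, and some, such as those of HIST2H2BE by its dimmer probe, are among the 95. Leaving out 1 mock channel in turn gave 29 to 36 higher and 15 to 17 lower in PC3 than in FaDu cells, 46 to 54 and 5 in PC3 than in PANC-1 cells, and 36 to 37 and 10 in FaDu than in PANC-1 cells. Low signal limits what can be read: 6 of the 69 genes did not pass the filter.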
